A study of Danio rerio with 17 samples.

Results

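The midbrains of 2 zebrafish populations kept on a selenium-deficient diet were compared gene by gene. The comparison used 6 of the 17 fish of the study, 3 of the population named Pargana and 3 of the population named Transgenic Mosaic 1. They were chosen by their labels for population and diet, and all had eaten food with 0.46 ppm selenium. The other 11 fish were 2 Pargana and 3 Transgenic Mosaic 1 fish on a control diet with 1.7 ppm selenium, and 3 fish of each population on a supplemented diet with 3.1 ppm. Selenium was given as selenomethionine for 10 weeks in each diet, and every fish was a male aged 1 year. Each array held RNA from the midbrain of a single fish. The labels call one population transgenic and mosaic, and which transgene it carries, in which cells, is not given in the sources used here. The genetic background, the transgene and the rearing of the populations therefore cannot be told apart. A sequence difference under an array probe can lower its signal in one population, which cannot be told apart from a lower RNA level.

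Selenium enters selenoproteins as selenocysteine, an amino acid that a dedicated machinery inserts at certain stop codons of their messages. Selenoproteins include glutathione peroxidases, which remove peroxides, and deiodinases, some of which activate thyroid hormone, and the brain holds on to selenium when supply is low. Laboratory populations of zebrafish carry many sequence and copy number differences between and within stocks, so that expression can differ between them on any diet. A comparison of populations on the deficient diet asks which genes differ when selenium is scarce, and the other diets show whether the same difference is present when it is not.

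The data were log2 expression values for 15648 genes, from 3.48 to 15.49, with array medians between 9.62 and 9.73. Among the 6 deficient arrays, those of one population correlated across genes at r = 0.980 to 0.989. For Pargana deficient fish 3 the code in the labels holds an O in place of the P found in the rest of that population, while its remaining labels name Pargana, by which it was grouped. Without it, 98 genes passed instead of 225, and 82 of them were shared. Neuronal and glial markers of the midbrain were present: 18 of 20 that could be matched lay above the median level of the arrays. Between the populations 0 differed in limma, also at an unadjusted p under 0.05. The closest was th2, at 0.49 (SE 0.23, limma unadjusted p = 0.0503). In th2 and GAD2 the groups did not overlap, as in 18.6% of all genes. SNAP25, a protein of synaptic vesicle release, was at 14.75 ± 0.08 (SD, n = 3) log2 units in Pargana and 14.63 ± 0.07 (SD, n = 3) in Transgenic Mosaic 1. The midbrain factors OTX2 and EN2 differed by 0.07 (SE 0.13) and 0.23 (SE 0.17). The glutamate transporter SLC1A2 was near the lowest values of the table, at 4.57 and 4.45 log2 units.

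On the deficient diet, 225 of 15648 genes (1.44%) differed between the populations, 126 higher (0.805%) and 99 lower (0.633%) in Transgenic Mosaic 1 (limma, Benjamini-Hochberg adjusted p under 0.05). Differences are given as Transgenic Mosaic 1 minus Pargana in log2 units, so that 1 unit is a doubling. Of the 225 genes, 138 differed by more than 1 unit and 43 by more than 2 units, 23 of these higher and 20 lower. The smallest difference that passed was 0.45 and the median size was 1.13. The standard error of a difference was 0.18 for the median gene, with a 5th percentile of 0.11 and a 95th percentile of 0.47, so that smaller differences in most genes could not be called with 3 fish a group. At an unadjusted p under 0.05 there were 2242 genes, where 782.4 are expected if no gene differs. In all 225 genes every fish of one population lay above every fish of the other, which was true of 18.6% of all genes, 9.41% with higher and 9.16% with lower values in Transgenic Mosaic 1.

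**Figure D1:**
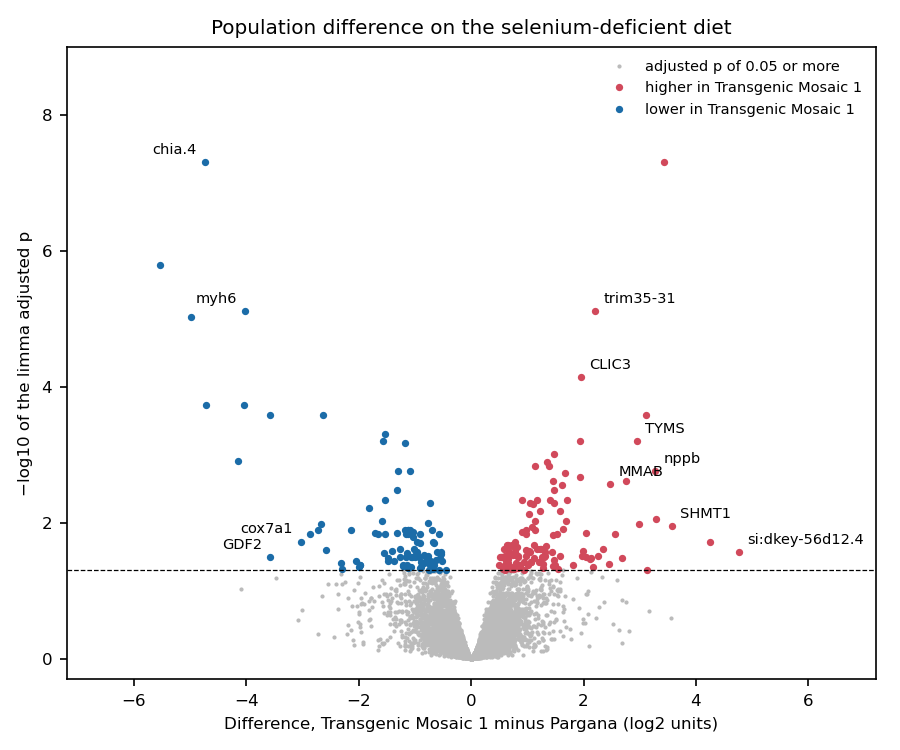
Each point is 1 of 15648 genes, with the difference on the deficient diet (Transgenic Mosaic 1 minus Pargana, log2 units) on the horizontal axis and the negative log10 of the limma adjusted p on the vertical axis. The 126 genes higher and 99 genes lower in Transgenic Mosaic 1 stand at both sides above the bulk of genes, whose median difference was 0.01.

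Of the enzymes of folate, thymidylate and vitamin B12 metabolism, SHMT1, TYMS and MMAB were higher in Transgenic Mosaic 1. SHMT1, the cytosolic serine hydroxymethyltransferase that loads folate with carbon units, was at 5.99, 5.74 and 5.74 log2 units in the Pargana fish and at 9.69, 8.70 and 9.79 in the Transgenic Mosaic 1 fish. The groups were far apart, with Transgenic Mosaic 1 fish 2 the lowest of its group. The difference was 3.57 (SE 0.60, limma adjusted p = 0.0113). TYMS, the thymidylate synthase that uses folate to make a DNA precursor, was at 9.98, 8.53 and 8.71 in Pargana and at 12.08, 11.98 and 12.01 in Transgenic Mosaic 1. Its spread was wide in Pargana and narrow in Transgenic Mosaic 1, and the difference was 2.95 (SE 0.34, limma adjusted p = 6.32e-04). MMAB, which makes the adenosyl form of vitamin B12 in mitochondria, was at 7.68, 7.51 and 7.61 against 10.55, 9.70 and 9.97. All 3 Transgenic Mosaic 1 fish were above all Pargana fish, by 2.48 on average (SE 0.35, limma adjusted p = 0.00268).

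These were the 3 genes that passed among 26 measured genes of a list of one-carbon, methionine and transsulfuration enzymes. Over all genes 1.44% were called. The list was chosen with earlier results of these data known, so this count is no independent support for the enzymes as a group. The other 23 did not pass, 8 of the 26 differences were below 0, with the lowest at -1.09, and its median difference was 0.21, against 0.01 over all genes. TYMS was also the 1 gene that passed among 24 genes of a proliferation and neurogenesis list, whose median was 0.03. Without Transgenic Mosaic 1 deficient fish 3 SHMT1 no longer passed (3.37, limma adjusted p = 0.0569), while TYMS and MMAB passed under all 25 alternatives tried.

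**Figure D2:**
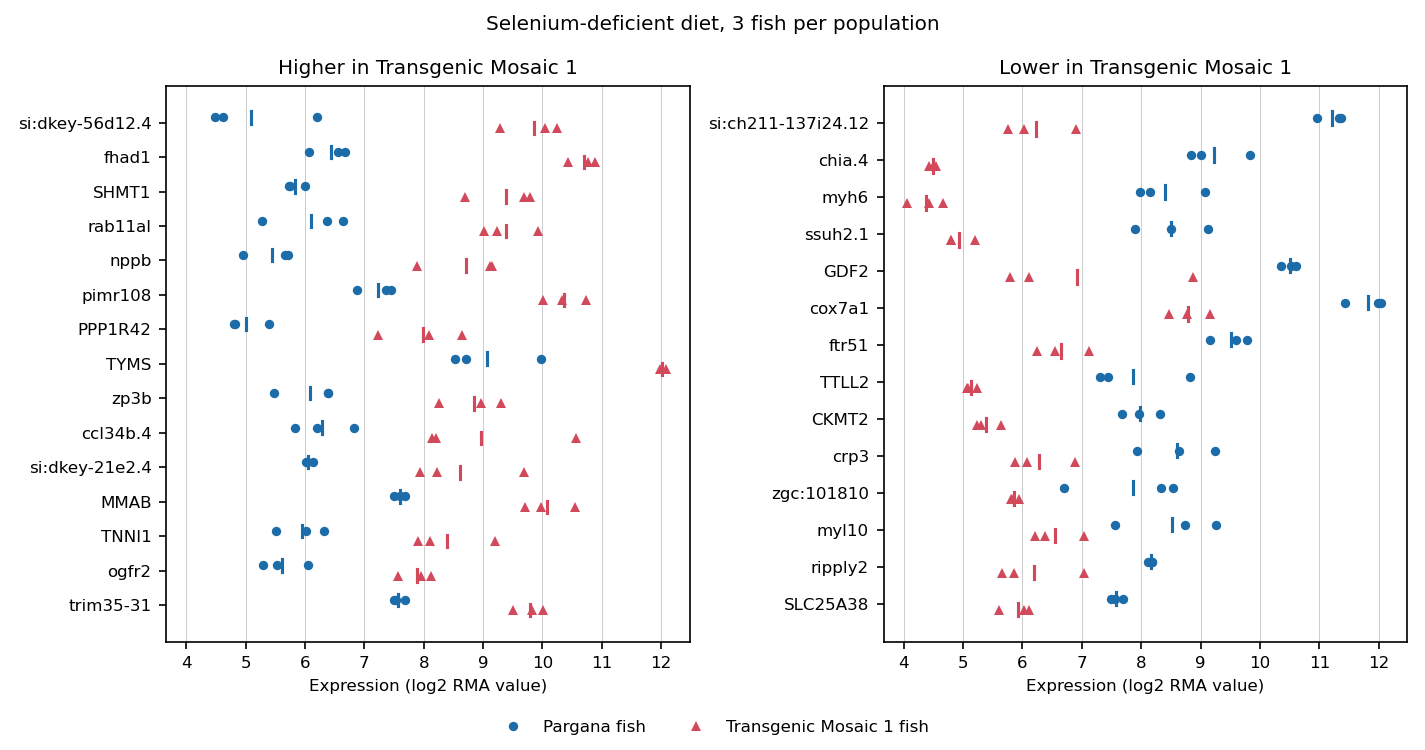
Log2 level of 29 of the 30 genes with the largest called differences, 15 higher and 14 lower in Transgenic Mosaic 1, in each of the 6 deficient fish. Points are single fish and colours mark the population. The populations overlap in no gene, which was a condition for choosing these genes.

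The natriuretic peptide gene nppb, best known from the heart, was at 5.72, 5.66 and 4.95 log2 units in Pargana and at 9.11, 7.89 and 9.15 in Transgenic Mosaic 1. The difference was 3.27 (SE 0.43, limma adjusted p = 0.00174). The gene next to it in the RefSeq order of genes, nppa, which encodes the atrial peptide of the same family, was at 5.45, 5.28 and 4.75 against 6.56, 6.07 and 6.11, a difference of 1.09 (SE 0.18, limma adjusted p = 0.0114). Both genes were thus low in every Pargana fish and higher in every Transgenic Mosaic 1 fish. The chemokine-like gene ccl34b.4 was at 6.21, 5.84 and 6.83 against 8.20, 10.56 and 8.14. Transgenic Mosaic 1 fish 2 stood more than 2 units above the other fish of its group. The difference was 2.68 (SE 0.57, limma adjusted p = 0.0332), and the call was lost without any of Pargana deficient fish 1, 2 or 3 (2.63, 2.45 and 2.94). It was also lost with the 6 deficient arrays fitted alone. Without Transgenic Mosaic 1 fish 2 the difference was 1.88 (limma adjusted p = 0.0467).

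Genes of innate immune families went both ways. The tripartite motif gene trim35-31 was at 7.50, 7.53 and 7.69 log2 units in Pargana and at 9.83, 9.51 and 10.02 in Transgenic Mosaic 1. It was higher in Transgenic Mosaic 1 by 2.21 (SE 0.16, limma adjusted p = 7.67e-06). ftr51, a member of the fish-specific finTRIM family, ran the other way at 9.79, 9.16 and 9.60 against 6.55, 7.12 and 6.25. Its difference was -2.87 (SE 0.52, limma adjusted p = 0.0148), and it lost the call without Pargana fish 1 or 3 or Transgenic Mosaic 1 fish 1 or 3 (-2.74, -2.83, -2.83 and -2.68). These were the 2 called genes among 17 of a TRIM and zinc finger list, beside 1.44% called over all genes. The list median was -0.02. This list was also chosen with earlier results of these data known.

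IFIH1, a cytosolic sensor of viral RNA, was at 7.65, 7.21 and 7.56 log2 units in Pargana and at 8.96, 9.35 and 8.77 in Transgenic Mosaic 1. The difference of 1.55 (SE 0.36, limma adjusted p = 0.0476) was just past the threshold and was not called under 15 of 25 alternatives, among them the omission of any deficient fish, and it stayed between 1.39 and 1.68. No other gene of 34 in the interferon and antigen presentation list passed, beside 1.44% called over all genes, and the list median was 0.21. The pentraxin gene crp3, of the C-reactive protein family, was lower in Transgenic Mosaic 1, at 5.88, 6.08 and 6.89 against 8.63, 9.24 and 7.93. Its difference was -2.32 (SE 0.51, limma adjusted p = 0.0387), and it lost the call under 11 of 25 alternatives, among them the omission of any deficient fish, with values between -2.65 and -1.997. It was not in the complement and acute phase list, in which 0 of 31 genes passed.

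Among the genes lower in Transgenic Mosaic 1, several were near the bottom of the measured range in all fish of that population. The acidic chitinase gene chia.4 was at 9.01, 8.84 and 9.83 log2 units in Pargana and at 4.43, 4.49 and 4.54 in Transgenic Mosaic 1. The difference of -4.74 (SE 0.22, limma adjusted p = 4.97e-08) had the smallest adjusted p among the named genes. It was the 1 called gene of 4 measured chitin and chitinase genes, beside 1.44% called over all genes. All 4 had a difference below 0, with a median of -0.99, and over all genes 7704 of 15648 were below 0. The myosin heavy chain gene myh6 was at 9.08, 7.99 and 8.14 against 4.06, 4.42 and 4.67. The difference was -4.02 (SE 0.30, limma adjusted p = 7.67e-06), whereas a second Ensembl gene with the symbol MYH6 differed by 0.53 (SE 0.27, limma adjusted p = 0.410). The gene ssuh2.1 was at 8.51, 9.12 and 7.90 against 4.79, 5.21 and 4.80, a difference of -3.58 (SE 0.38, limma adjusted p = 2.61e-04).

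A clone-named gene, a growth factor and a tubulin-modifying enzyme were also lower in every Transgenic Mosaic 1 fish than in any Pargana fish. The gene si:ch211-137i24.12, known by a clone name, was at 11.36, 11.33 and 10.96 against 5.75, 6.03 and 6.90. Its difference was -4.99 (SE 0.38, limma adjusted p = 9.30e-06). GDF2, a growth factor of the BMP family that acts on endothelial cells, was at 10.61, 10.36 and 10.53 in Pargana and at 5.80, 6.11 and 8.87 in Transgenic Mosaic 1. Transgenic Mosaic 1 fish 3 lay closer to Pargana than to the other fish of its group. The difference was -3.58 (SE 0.75, limma adjusted p = 0.0324), and it passed without fish 3 (-4.55) but not without Transgenic Mosaic 1 fish 1 or 2 (-3.01 and -3.17) or any of Pargana fish 1, 2 and 3 (-3.52, -3.65 and -3.56). TTLL2, of a family of enzymes that modify tubulin, was at 8.82, 7.31 and 7.44 against 5.06, 5.08 and 5.24. All values of Transgenic Mosaic 1 lay below those of Pargana (-2.73, SE 0.47, limma adjusted p = 0.0126).

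The largest positive difference was that of si:dkey-56d12.4, known by a clone name. It was at 4.62, 6.19 and 4.48 log2 units in Pargana and at 10.05, 9.29 and 10.24 in Transgenic Mosaic 1, a difference of 4.76 (SE 0.95, limma adjusted p = 0.0271). Pargana fish 2 was the highest and Transgenic Mosaic 1 fish 2 the lowest of their groups. The call was lost without Pargana fish 1 or 3 (4.52 and 4.45) or Transgenic Mosaic 1 fish 1 or 3 (4.67 and 4.57). The gene fhad1, whose protein has a forkhead-associated domain, was at 6.68, 6.06 and 6.56 against 10.89, 10.43 and 10.77. Its difference was 4.26 (SE 0.79, limma adjusted p = 0.0189), lost without Pargana fish 3 (4.32) or Transgenic Mosaic 1 fish 1 or 3 (4.16 and 4.22).

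Other genes higher in Transgenic Mosaic 1 were rab11al, a small GTPase of the Rab11 type (3.30, SE 0.54), the kinase-related pimr108 (3.13, SE 0.72), PPP1R42, a regulatory subunit of protein phosphatase 1 (2.98, SE 0.50), zp3b, an egg coat glycoprotein (2.75, SE 0.38), si:dkey-21e2.4 (2.55, SE 0.45) and ogfr2 (2.26, SE 0.47). Their limma adjusted p ran from 0.00241 for zp3b to 0.0495 for pimr108. Both rab11al and zp3b passed under every alternative. The call of pimr108 was lost under 17 of 25, among them the omission of any deficient fish (2.94 to 3.30), that of ogfr2 under 5, and that of si:dkey-21e2.4 without Pargana fish 3 (2.54) or with the 6 deficient arrays fitted alone. With those 6 arrays alone pimr108 kept its call. PPP1R42 lost it without Transgenic Mosaic 1 fish 3 (2.65). ogfr2 lost it without Pargana fish 1 or 3 (2.09 and 2.21) or Transgenic Mosaic 1 fish 1, 2 or 3 (2.14, 2.22 and 2.42). Further genes lower in Transgenic Mosaic 1 were zgc:101810 (-2.005, SE 0.45), ripply2, a repressor known from somite formation (-1.97, SE 0.44), and SLC25A38, a mitochondrial glycine carrier of haem synthesis (-1.66, SE 0.30). The first lost its call under 13 of 24 alternatives, including the omission of any deficient fish but Pargana fish 3 (-2.05 to -1.66). ripply2 lost it under 10 of 25, including the omission of any deficient fish but Transgenic Mosaic 1 fish 1 (-1.99 to -1.71), and SLC25A38 without Pargana fish 3 (-1.61) or Transgenic Mosaic 1 fish 1 or 3 (-1.51 and -1.72). Of the 30 genes with the largest differences, 12 passed under every alternative that could be fitted for them and 18 lost the call at least once.

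Several genes named for striated muscle differed, mostly towards lower levels in Transgenic Mosaic 1. cox7a1, a cytochrome c oxidase subunit whose isoform is typical of heart and muscle, was at 11.99, 11.43 and 12.04 log2 units in Pargana and at 9.15, 8.47 and 8.77 in Transgenic Mosaic 1. The difference was -3.02 (SE 0.56, limma adjusted p = 0.0190). CKMT2, the mitochondrial creatine kinase of sarcomeric muscle, was at 7.67, 7.96 and 8.32 against 5.24, 5.31 and 5.63, a difference of -2.59 (SE 0.51, limma adjusted p = 0.0250). The myosin light chain gene myl10 was at 7.56, 9.25 and 8.73 against 7.04, 6.21 and 6.38. In myl10 the groups came close, with Pargana fish 1 less than 1 unit above Transgenic Mosaic 1 fish 1, and the difference was -1.97 (SE 0.44, limma adjusted p = 0.0415). The other direction was taken by TNNI1, the slow muscle troponin I, at 5.52, 6.01 and 6.31 in Pargana and 9.20, 7.90 and 8.10 in Transgenic Mosaic 1. TNNI1 was higher by 2.45 (SE 0.54, limma adjusted p = 0.0410), and it lost the call under 12 of 25 alternatives, including the omission of any deficient fish but Transgenic Mosaic 1 fish 2 (2.05 to 2.63).

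A list of 29 skeletal muscle genes had a median difference of -0.40, with 25 genes below 0 and 1 called, cox7a1. Over all genes 7704 of 15648 were below 0 and 1.44% were called. Each gene was centred on its mean over the 17 arrays, and the average of the centred values in a fish, its score for the list, was 0.01, 0.52 and 0.30 in the Pargana fish and -0.10, -0.52 and -0.27 in the Transgenic Mosaic 1 fish. All 3 Pargana fish were thus above all 3 Transgenic Mosaic 1 fish, with the highest score in Pargana fish 2. The mean level of the 29 genes ran from 7.72 to 8.23 in Pargana and from 7.18 to 7.61 in Transgenic Mosaic 1. Without Pargana fish 2 the list median was -0.36, cox7a1 still passed (-3.22) and CKMT2 (-2.61) and myl10 (-1.61) did not. CKMT2 also lost its call without Pargana fish 3 (-2.42) or Transgenic Mosaic 1 fish 1 or 3 (-2.51 and -2.71), cox7a1 without Pargana fish 1 or 3 (-2.94 and -2.91) or Transgenic Mosaic 1 fish 3 (-3.01), and myl10 under 10 of 25 alternatives, including the omission of any deficient fish but Pargana fish 1 (-2.22 to -1.61). The part of the muscle score in these differences was not tested. In midbrain pieces, fewer cells of a type and less RNA per cell cannot be told apart.

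Marker lists of other tissues and cells were read in the same way. Over 15 pituitary genes the median was -0.45, with 12 below 0 and 0 called, and the scores were -0.06 to 0.39 in Pargana and -0.36 to -0.19 in Transgenic Mosaic 1, without overlap. Germ cell genes had a median of 0.12 over 18 genes with 1 called, zp3b, and scores of -0.24 to 0.00 against 0.03 to 0.13. These scores include zp3b, which differed by 2.75. They were not computed without it, so their gap may rest on this gene. For eye and pineal genes the highest score was 0.94, in Transgenic Mosaic 1 fish 2, which also had the highest macrophage and microglia score at 0.44. The eye and pineal list had 0 of 34 genes called and a median of 0.12, and the macrophage and microglia list 0 of 24 and 0.29. Epithelium and skin (0 of 15, -0.20), erythrocyte (0 of 11, -0.14), neutrophil (0 of 6, -0.01) and lymphocyte lists (0 of 12, 0.20) had scores that overlapped between the populations. At an unadjusted p under 0.05 each of these lists without a call held between 1 and 5 genes. Over all 15648 genes, 2242 had such a p, 1.44% were called and 7704 were below 0. The part of these cell types in the differences above was not tested.

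The selenoprotein genes that could be matched did not differ between the populations past the threshold on the deficient diet. Of 40 entries in the list 20 were matched, to 18 genes, and entries without a match were not examined. Of the 18 measured genes, 0 passed in limma, with 2 at an unadjusted p under 0.05, 11 above 0 and 7 below. Over all genes, 1.44% passed, 2242 of 15648 had an unadjusted p under 0.05 and 7944 were above 0. With 18 genes, 0 called does not set the list apart from all genes. Their median difference was 0.04 and they ran from -0.42 to 0.57. For 16 of the 18 the 95% confidence interval lay within 1 log2 unit either side of 0, and over all 18 the outermost bounds were -0.97 and 1.43. Smaller differences remain possible at this number of fish.

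The peroxide-removing gpx1a, which encodes a glutathione peroxidase, was at 10.64, 11.62 and 10.88 log2 units in Pargana and at 11.27, 11.24 and 10.82 in Transgenic Mosaic 1. Its groups overlapped and the difference was 0.07 (SE 0.23, limma adjusted p = 0.937). GPX4, which protects membrane lipids, was at 11.96, 11.38 and 12.13 against 11.87, 12.08 and 11.94, also overlapping (0.14, SE 0.17). The plasma form gpx3 had the lowest difference of the list (-0.42, SE 0.26, limma adjusted p = 0.494). The gene of the transport protein selenop was at 13.55, 13.11 and 13.13 against 13.44, 13.63 and 13.43, a difference of 0.24 (SE 0.14, limma adjusted p = 0.457).

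The genes of the list closest to the threshold were both higher in the Transgenic Mosaic 1 fish. SELENOM, an endoplasmic reticulum redox protein abundant in brain, was at 11.75, 11.19 and 11.37 log2 units in Pargana and from 11.80 to 12.12 in Transgenic Mosaic 1. The groups did not overlap, but the difference of 0.53 (SE 0.16, unadjusted p = 0.00575) did not pass in limma, with an adjusted p of 0.129. DIO2, the deiodinase that activates thyroid hormone, was at 11.79, 11.56 and 11.21 against 11.95, 11.92 and 12.38. Here the groups did not overlap either, and the difference was 0.57 (SE 0.25, limma unadjusted p = 0.0387, adjusted p = 0.310). The groups were without overlap in 2 of the 18 selenoprotein genes, against 18.6% of all genes. In the 6 control and supplemented Transgenic Mosaic 1 fish against the 5 Pargana fish of those diets, SELENOM differed by 0.14 (SE 0.12) and DIO2 by 0.33 (SE 0.19). Neither difference between the diets passed (limma adjusted p = 0.999 for both).

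Genes of selenocysteine synthesis and selenium handling had a median difference of 0.05 over 12 genes, with 0 called. SEPSECS, the synthase that makes selenocysteine on its transfer RNA, was at 9.06, 8.74 and 9.00 log2 units in Pargana and at 8.05, 8.61 and 8.82 in Transgenic Mosaic 1. The groups overlapped by 1 fish, and the difference was -0.44 (SE 0.17, limma unadjusted p = 0.0232, adjusted p = 0.248). Without Transgenic Mosaic 1 fish 1 it was -0.21. The insertion factor secisbp2, which binds the selenocysteine signal of the message, differed by 0.48 (SE 0.26, limma adjusted p = 0.429), and LRP8, a receptor that takes up selenoprotein P in brain, by -0.07 (SE 0.18). Of 29 antioxidant, glutathione and thioredoxin genes 0 passed, and their median was 0.14. In the thyroid hormone list CRYM, which binds the hormone in the cytosol, was the 1 of 9 genes that passed, beside 1.44% over all genes. It was at 7.57, 8.33 and 7.59 in Pargana and at 9.83, 9.35 and 9.40 in Transgenic Mosaic 1. Every Transgenic Mosaic 1 fish was above every Pargana fish, by 1.69 on average (SE 0.28, limma adjusted p = 0.00946). With the 6 deficient arrays fitted alone CRYM did not pass (limma adjusted p = 0.0509).

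In the remaining lists single genes or none passed, and the share over all genes was 1.44%. CHRNA2, a nicotinic acetylcholine receptor subunit, was at 9.48, 9.55 and 9.52 log2 units in Pargana and at 9.03, 8.92 and 8.87 in Transgenic Mosaic 1, a difference of -0.58 (SE 0.10, limma adjusted p = 0.0148). It was the 1 called gene among 30 of transmitter synapses. A second Ensembl gene with this symbol had a difference of 1.17 (SE 0.35) that did not pass. The call of the first was lost without Pargana fish 3 (-0.58, limma adjusted p = 0.0534) or Transgenic Mosaic 1 fish 3 (-0.55). RPL13A, of the large ribosomal subunit, was at 11.53, 11.48 and 11.17 against 10.72, 10.90 and 10.70. Its difference was -0.62 (SE 0.13, limma adjusted p = 0.0358), as the 1 called among 46 ribosomal genes whose median was 0.03. RPL13A lost the call under 6 of 25 alternatives, among them the omission of Pargana fish 1 or 2 (-0.55 and -0.57), Transgenic Mosaic 1 fish 1 or 3 (-0.59 and -0.58) and Transgenic Mosaic 1 supplemented fish 3. Oxidative phosphorylation had 1 of 59, cox7a1, with a median of 0.02.

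None passed in limma among 25 genes of monoamine neurons (median 0.05), 22 synaptic and neuronal genes (-0.09), 11 myelin (0.00), 12 astroglia (0.09), 34 unfolded protein and heat shock (0.08), 35 circadian clock (-0.03), 22 immediate early (0.03), 27 steroid and stress axis (-0.11), 30 lipid metabolism (0.04), 8 olfactory and taste receptor (0.08) and 24 collagen and vessel genes (0.08). At an unadjusted p under 0.05, between 0 and 9 genes of each of these lists were found, against 2242 of 15648 over all genes. The 9 were among the 30 lipid metabolism genes. In that list 11 genes did not overlap between the populations, against 18.6% of all genes. In the unfolded protein and heat shock list 28 of 34 differences were above 0, against 7944 of 15648 over all genes, and the highest was 0.94.

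**Figure D3:**
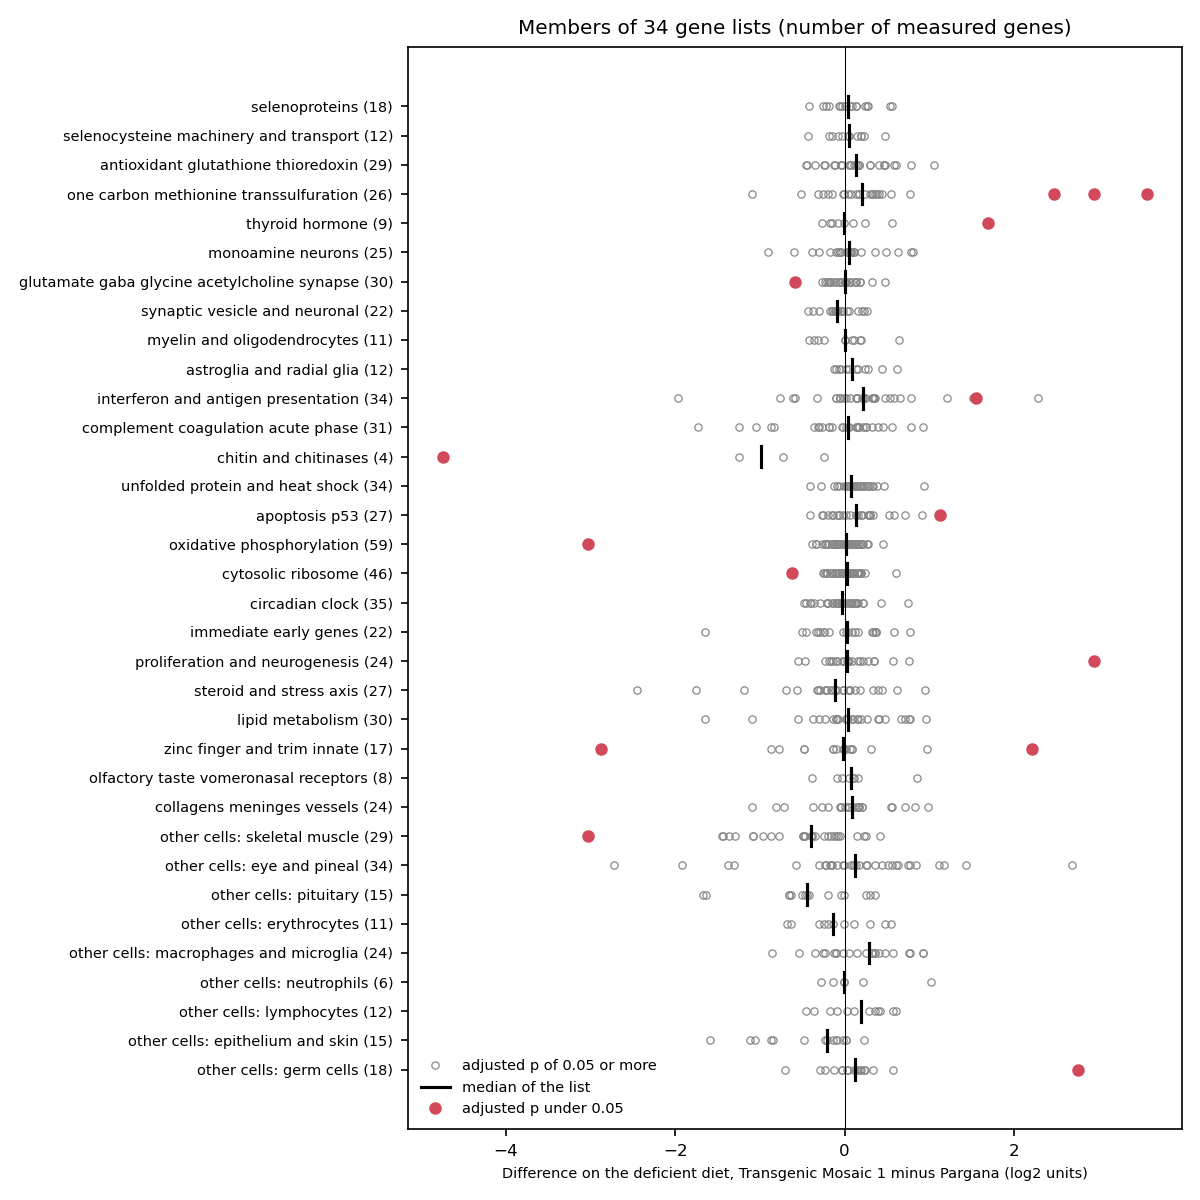
Difference on the deficient diet (Transgenic Mosaic 1 minus Pargana, log2 units) of the measured members of 34 gene lists, with the number of genes of each list beside its name. Points are genes, called genes are marked, and the medians lie close to 0 except for lists such as chitin and chitinases (-0.99), skeletal muscle (-0.40) and pituitary (-0.45).

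The differences were next looked up in the 11 fish on the other diets, so that their signs and sizes come from fish outside the deficient comparison. The calls are not independent, because both comparisons came from the same fit. It estimated the variance of each gene over all arrays of the study, and a low variance favours a call in both. On the control diet 149 genes (0.952%) passed between the populations, 77 higher (0.492%) and 72 lower (0.46%) in Transgenic Mosaic 1. On the supplemented diet there were 606 (3.87%), 257 higher (1.64%) and 349 lower (2.23%). For the mean of the control and supplemented differences there were 1119 (7.15%), 517 higher (3.3%) and 602 lower (3.85%). Of the 225 genes called on the deficient diet, 223 (99.1%) had the same sign in the mean of the other diets, against 68.2% of all genes. Of the 225, 166 (73.8%) were also called there, 165 of them with the same sign, which was 14.8% of the 1119 genes called in the other fish. On the control diet 60 of the 225 (26.7%) were called and on the supplemented diet 132 (58.7%), with 215 and 221 of the same sign. Measured in the direction of the deficient fish, the median difference of the 225 was 0.81 in the other fish and 1.13 in the deficient fish. They were chosen for passing in the deficient fish, which favours a larger value there.

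**Figure D4:**
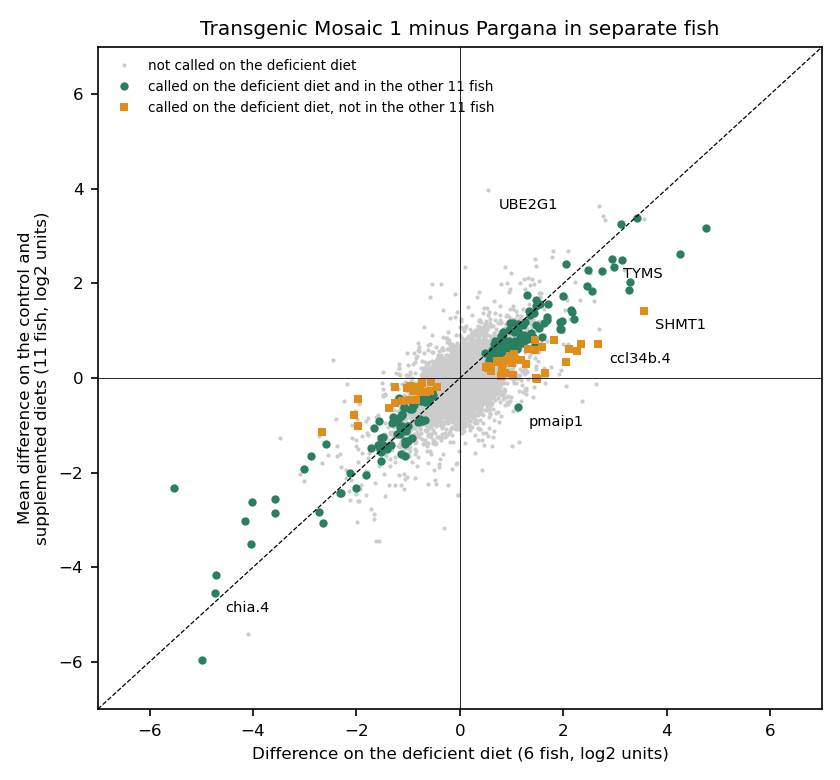
For each gene, the difference in the 11 control and supplemented fish is plotted against that in the 6 deficient fish (Transgenic Mosaic 1 minus Pargana, log2 units). Of the 225 genes called on the deficient diet 223 have the same sign on both axes, and 59 of them were not called in the other fish.

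Of the 30 named genes 25 passed in the mean of the other diets, and all 30 had the same sign. On the control diet alone 10 passed and 29 had the same sign, with myl10 at 0.25, and on the supplemented diet alone 22 passed and all 30 had the same sign. chia.4 was between 8.74 and 9.26 log2 units in the 5 other Pargana fish and between 4.14 and 4.86 in the 6 other Transgenic Mosaic 1 fish, a difference of -4.55 (SE 0.17, limma adjusted p = 1.68e-09). For si:ch211-137i24.12 it was -5.97 (SE 0.29), for TYMS 2.51 (SE 0.26), for MMAB 2.29 (SE 0.26) and for trim35-31 1.25 (SE 0.12), all of which passed. The 5 named genes that did not pass in the other fish were SHMT1 (1.43, SE 0.45, limma adjusted p = 0.0730), ccl34b.4 (0.72, SE 0.42), ogfr2 (0.57, SE 0.35), myl10 (-0.45, SE 0.33) and ripply2 (-1.01, SE 0.33). For none of these 5 did the test of the difference between the diets pass.

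In a few genes some Transgenic Mosaic 1 control fish lay at the Pargana level. SHMT1 was at 5.92 and 5.81 log2 units in Transgenic Mosaic 1 control fish 1 and 2 and at 8.95 in fish 3, while the supplemented fish were at 8.69, 8.56 and 8.74. Pargana fish of those diets were between 6.12 and 6.90. Likewise fhad1 was at 5.83, pimr108 at 6.53 and PPP1R42 at 5.37 in Transgenic Mosaic 1 control fish 2, against 10.56 and 9.39, 10.09 and 10.04, and 7.32 and 7.99 in control fish 1 and 3. The deficient and supplemented Transgenic Mosaic 1 fish were all high in these 4 genes. The variance of each gene was estimated over all arrays, these control fish included. With the 6 deficient arrays fitted alone, all 4 genes kept their call on the deficient diet. For cox7a1 the 2 Pargana control fish were at 9.34 and 9.72 and supplemented fish 2 at 9.82, whereas Pargana supplemented fish 1 and 3, at 12.04 and 12.31, matched the deficient fish.

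Whether a population difference depended on the diet was tested directly, as the difference on the deficient diet minus the mean of those on the control and supplemented diets. Only 5 genes (0.032%) passed in limma, 1 higher (0.00639%) and 4 lower (0.0256%). At an unadjusted p under 0.05 there were 723, where 782.4 are expected if no population difference depends on diet. Against the control diet alone 8 genes passed (0.0511%), 1 higher (0.00639%) and 7 lower (0.0447%). Against the supplemented diet alone 0 passed (0%), and the smallest limma adjusted p was 0.526. There 843 genes had an unadjusted p under 0.05, again near the 782.4 expected. Of these, 2 genes passed both for the population difference on the deficient diet and for its dependence on diet, and pmaip1 is the one described here.

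The gene pmaip1 was low in the deficient Pargana fish alone among the groups. Its product Noxa promotes apoptosis. It was at 5.11, 5.13 and 4.98 log2 units in them and at 5.84, 6.58 and 6.18 in the deficient Transgenic Mosaic 1 fish. In the other groups it ran from 5.65 to 6.96. These are low levels: the mean of pmaip1 was at percentile 17.4 of all genes, and the lowest value of the data was 3.48. The gene was therefore absent from the fit without the quartile of genes lowest on average. The population difference on the deficient diet was 1.12 (SE 0.21, limma adjusted p = 0.0211), and on the other diets it was -0.62 (SE 0.16, limma adjusted p = 0.0326), the opposite sign. Its dependence on diet was 1.74 (SE 0.27, limma adjusted p = 0.0431) and lost the call under 15 of 23 alternatives, with values from 1.56 to 1.93. The omission of Pargana fish 1, 2 or 3 (1.76, 1.77 and 1.70) or Transgenic Mosaic 1 fish 2 or 3 (1.56 and 1.75) was among them. The call on the deficient diet itself was lost without Pargana fish 1 or 3 (1.14 and 1.08), without Transgenic Mosaic 1 fish 3 (1.13) or with the 6 arrays fitted alone. It was the 1 called gene among 27 of an apoptosis list, whose median was 0.14, beside 1.44% called over all genes.

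A further 3 of the 5 genes did not pass for the population difference on the deficient diet, and a control group stood apart in each. UBE2G1, a ubiquitin-conjugating enzyme, was at 5.32 and 5.80 log2 units in the Pargana control fish and between 11.56 and 13.26 in all other fish. The gene ENSDARG00000095735, named after a clone, was at 13.56, 13.71 and 13.50 in the Transgenic Mosaic 1 control fish and between 8.53 and 9.63 elsewhere. The unnamed ENSDARG00000078938 was between 10.92 and 11.35 in those fish and between 6.82 and 8.20 elsewhere. Their dependences on diet were -3.43 (SE 0.39), -1.86 (SE 0.19) and -2.52 (SE 0.28), and on the deficient diet the population differences were 0.54 (SE 0.31), -0.10 (SE 0.15) and -0.55 (SE 0.23), none of which passed. The next genes by p did not pass either. They were si:dkey-58f10.8 (-1.22, SE 0.23), sun1a (-0.98, SE 0.19), emilin1a (0.96, SE 0.20) and trim35-31 (0.96, SE 0.21). Of these emilin1a, which encodes an extracellular matrix glycoprotein, differed by 1.02 (SE 0.16, limma adjusted p = 0.00743) on the deficient diet and by 0.07 (SE 0.12) on the others.

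**Figure D5:**
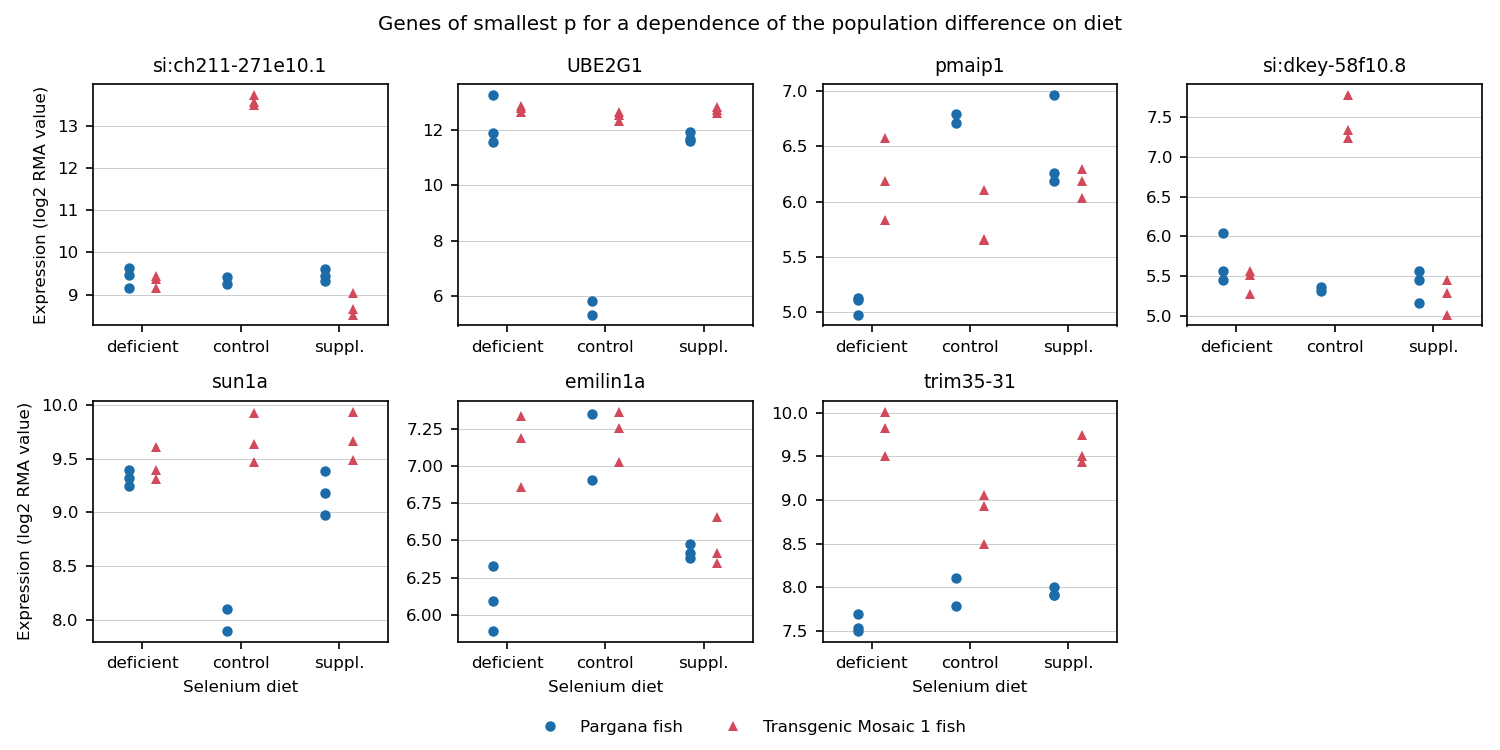
Log2 level in each of the 17 fish, by population and diet, of 7 of the 8 genes with a symbol and the smallest p for dependence of the population difference on diet, with ENSDARG00000095735 in the first panel under its clone name. Points are single fish, and the plots show the low pmaip1 values of the 3 deficient Pargana fish and the low UBE2G1 values of the 2 Pargana control fish.

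Positions of the genes were compared through their order in the RefSeq annotation of zebrafish, which placed 9909 of the genes, 145 of them called on the deficient diet. In 2 pairs of neighbouring genes both were called, and in both pairs they had the same direction. One pair was nppb and nppa, both higher in Transgenic Mosaic 1. The second pair was tube1, of the tubulin family, and ccn6, a secreted matrix protein, both lower. tube1 was at 8.40, 8.11 and 8.11 log2 units in Pargana and at 7.15, 6.72 and 7.55 in Transgenic Mosaic 1 (-1.07, SE 0.22). ccn6 was at 9.33, 8.79 and 9.61 against 7.60, 7.61 and 7.93 (-1.53, SE 0.23). Of the called genes 2.76% had a called neighbour, and of the genes not called 2.90% did.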

How the data were processed

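For each Ensembl gene the authors deposited a log2 value, obtained by RMA with the Zv9 build per the submitters' processing notes; no software version is stated there. Per the labels' protocols, cDNA made with random hexamers was labelled with Cy3 for NimbleGen arrays. The labels give no slide or scan date. The table held 15649 features, and 1 that names no gene was left out. A symbol was found for 13251 gene identifiers (84.68%). RefSeq gene order was that of GRCz12tu, matched by symbol.

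Differences were fitted with limma 3.58.1 (R 4.3.3), using 6 group means over all 17 arrays (11 residual and 2.84 prior degrees of freedom), two-sided, Benjamini-Hochberg adjusted over all 15648 genes, with a threshold of 0.05. The test was checked on simulated data. Every array is a separate fish, and precision rests on the number of fish.

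Named genes were, among called genes with a symbol and no overlap between the populations, the 15 largest in each direction, the 8 of smallest p for dependence on diet, called members of the lists (up to 6 a list) and selenoproteins with an unadjusted p under 0.05. Features without a symbol, nppa, tube1, ccn6 and the selenium genes given for reference were chosen after their values were seen. The members and the 34 lists were chosen with earlier results of these data known. Of 1203 list entries 851 were matched, to 765 genes, by symbol, older symbol, synonym or base symbol, and wrong aliases were dropped after the matches were seen. In addition, 1 named gene is not reported here. A list is described by its counts and median, without a test of its own.

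The fit was repeated after another quantile normalization, after median centring of arrays, without the quartile of genes lowest on average, with 1 feature for each symbol, with trended or robust variance moderation, with array weights, with the 6 deficient arrays alone, and with each deficient array left out; leaving out each of the 11 other arrays was added after the data were seen. Figures were made with matplotlib 3.10.9 in python 3.11.15.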

Additional observations from a re-analysis of the deposited data

Results flagged for a closer look

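The population difference itself differed between diets in limma for 8 genes, 7 of which are given here. Deficient against the mean of the other diets, the values were -3.43 for UBE2G1 (SE 0.39, limma adjusted p = 0.00252), -2.52 for ENSDARG00000078938 (SE 0.28), 1.74 for pmaip1 (SE 0.27) and -1.86 for ENSDARG00000095735 (SE 0.19). Deficient against the control diet alone they were -6.40 for UBE2G1 (SE 0.47), -4.72 for ENSDARG00000078938 (SE 0.34), -4.34 for ENSDARG00000095735 (SE 0.23), -2.37 for ENSDARG00000091965 (SE 0.36), -2.35 for si:dkey-58f10.8 (SE 0.28), 2.07 for pmaip1 (SE 0.32) and -1.57 for sun1a (SE 0.23). The largest limma adjusted p among the latter was 0.0309, for pmaip1.

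In 6 of these 8 genes the control fish of one population stood apart. UBE2G1, ENSDARG00000091965 and sun1a were low in the 2 Pargana control fish, at 5.83 and 6.12 log2 units for ENSDARG00000091965, against values above 7 elsewhere, and at 8.10 and 7.90 for sun1a, against 8.98 or more. ENSDARG00000078938, ENSDARG00000095735 and si:dkey-58f10.8 were high in the 3 Transgenic Mosaic 1 control fish, at 7.24, 7.78 and 7.34 for si:dkey-58f10.8, against 6.04 or less elsewhere. No group had more than 3 fish, so single fish that stand apart were not tested for.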

How the results depend on the processing

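The 225 calls on the deficient diet, 126 higher and 99 lower, became 499, 267 and 232 with array weights, which gave the lowest weight of the deficient arrays to Pargana fish 2 (0.52), and 84, 47 and 37 with the 6 deficient arrays fitted alone, which leaves fewer degrees of freedom. Of the 225, 222 and 66 were kept. With single arrays left out the counts ran from 77 to 279, from 40 to 148 higher and from 37 to 131 lower. The lowest total came without Transgenic Mosaic 1 deficient fish 3, and 103, 98 and 136 remained without Transgenic Mosaic 1 fish 1 or Pargana fish 3 or 1. The other alternatives gave 210 to 247. The 1119 calls in the other fish ran from 734 to 1140 with single arrays left out and from 874 to 1182 under the other alternatives, with 734 without Transgenic Mosaic 1 control fish 1 and 735 without its supplemented fish 3. The 5 genes dependent on diet ran from 3 to 27 with single arrays left out, with 27 without Pargana control fish 2 and 3 without Pargana deficient fish 3 or Transgenic Mosaic 1 deficient fish 2 or 3. No difference of a named gene changed sign. Other normalizations shifted the median of all genes to between -0.01 and 0.01. No paired analysis was possible because the replicate numbers follow accession order and link no fish. The cause of these changes was not tested.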

Other observations

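Receptors and peptides of neural signalling were among the called genes, chosen for the text with their values known. They are single examples, because the measured genes of this kind were not counted. Of the related lists, transmitter synapses had 1 of 30 genes called, monoamine neurons 0 of 25 and synaptic and neuronal genes 0 of 22. GALR2, a galanin receptor, was at 7.88, 7.78 and 7.74 log2 units in the deficient Pargana fish and at 6.22, 6.34 and 6.11 in the deficient Transgenic Mosaic 1 fish. The groups were tight and apart, with a difference of -1.57 (SE 0.18, limma adjusted p = 6.32e-04), and it was -0.92 (SE 0.14) in the other fish. The melanin-concentrating hormone receptor gene mchr2b was at 8.37, 8.41 and 8.18 against 6.61, 6.79 and 6.95 (-1.54, SE 0.28, limma adjusted p = 0.0148). CHRM3, a muscarinic acetylcholine receptor, was at 8.34, 8.24 and 7.98 against 7.24, 6.90 and 6.91 (-1.17, SE 0.14), while a second Ensembl gene with this symbol differed by 0.22 (SE 0.22). Higher in Transgenic Mosaic 1 were the adenosine receptor gene adora3a.1, at 11.51, 11.73 and 11.33 against 9.88, 10.31 and 10.35 (1.35, SE 0.17, limma adjusted p = 0.00129), and the nicotinic subunit gene CHRNA5 (1.23, SE 0.19). The prolactin receptor gene prlrb was higher by 1.94 (SE 0.26) and grp, which encodes gastrin-releasing peptide, by 1.97 (SE 0.41). In the other fish the differences of these last 4 genes were 1.33, 1.12, 1.03 and 1.204, all of the same sign.

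Some enzymes of amino acid metabolism were called too, and those measured were not counted. The proline dehydrogenase gene prodhb was at 11.14, 11.63 and 11.30 log2 units in Pargana and at 9.76, 9.87 and 9.84 in Transgenic Mosaic 1, a difference of -1.53 (SE 0.17, limma adjusted p = 4.98e-04). KYAT1, a kynurenine aminotransferase, was at 10.03, 9.87 and 10.00 against 9.30, 8.97 and 9.33 (-0.76, SE 0.13). In the other fish they differed by -1.27 and -0.91. Some called genes had almost no difference in the other fish: HVCN1, a voltage-gated proton channel, at 1.47 (SE 0.31) on the deficient diet and 0.00 (SE 0.24) on the others, ccdc180 at 1.64 and 0.10, cdh7b, a cadherin, at 1.48 and -0.02, and the transcription factor gene DMRTA2 at -1.03 and -0.21. For none of these 4 did the difference between the diets pass (limma adjusted p from 0.853 to 0.943). Of the 37 called features without a symbol, ENSDARG00000088489 was at 4.30, 4.59 and 4.37 in Pargana and at 8.03, 7.98 and 7.53 in Transgenic Mosaic 1 (3.43, SE 0.16, limma adjusted p = 4.97e-08).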
